A study of Mus musculus with 6 samples.

Results

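The sarcomere is the contractile unit of muscle, and the 10 genes described here encode its myosin, troponin and actin chains in the embryonic heart. They are the myosin heavy chain genes *Myh6* and *Myh7*, the myosin light chain genes *Myl2*, *Myl3*, *Myl4* and *Myl7*, the troponin genes *Tnnt2*, *Tnni1* and *Tnnc1*, and the cardiac actin gene *Actc1*. The genes were picked by symbol, and each of the 10 was found alone at 1 of the 24207 loci of the expression table. RNA-seq had been performed on 6 male embryos at E9.5. Of these, 3 were wildtype (Smchd1+/+) and 3 were homozygous for the MommeD1 allele of *Smchd1* (Smchd1MommeD1/MommeD1, called mutant here). All came from matings of heterozygous parents. The labels name the embryo, and no single organ, as the source of the RNA, and the yolk sac as the source of the genotypes. The sample labels give C57Bl6/J x FVB/n as the strain of all 6 embryos, whereas the paper's text describes a backcross to another background for its RNA-seq embryos. Which background these embryos carried was not tested.

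Expression was measured as FPKM, which scales the fragments of a transcript by its length and by all mapped fragments, so that levels can be compared between genes of different length. The table holds 1 value per genotype, pooled by the authors over the 3 embryos. No spread between embryos can be computed from these pooled values, so every difference reported here is given without a test or interval, and the read depth is unknown. The authors' own test results for the same table were not used. Differences are given as the log2 ratio of mutant to wildtype FPKM after addition of 0.1 FPKM to each value. *Smchd1* itself, on chromosome 17 of mm10, was at 2.12 FPKM in mutant embryos and 34.0 FPKM in wildtype embryos. The median log2 ratio over the 12463 loci with a mean FPKM of 1 or more, called expressed loci here, was -0.01. Of these, 48.2% were higher and 51.8% lower in mutant embryos.

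In a sarcomere, thick filaments of myosin pull on thin filaments of actin, and the troponin complex on the thin filament lets calcium switch the contraction on. Each myosin molecule carries heavy chains, which hold the motor, and 2 kinds of light chain, called regulatory and essential. The heart uses a different gene for several of these chains in its atria than in its ventricles. *Myh6*, *Myl7* and *Myl4* encode the forms that become typical of the atrium, and *Myh7*, *Myl2* and *Myl3* encode those of the ventricle. In the early heart tube the forms overlap, and some, such as *Actc1*, *Tnnc1* and *Tnni1*, are also used in embryonic skeletal muscle. In RNA from embryos, which hold many tissues, fewer heart muscle cells and less RNA per heart muscle cell cannot be told apart.

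None of the 10 sarcomere genes differed by 1.5-fold between genotypes. Among all expressed loci, 3.51% were at least 1.5-fold higher and 1.47% at least 1.5-fold lower in mutant embryos. The sarcomere genes were close in level in both genotypes, and most of them lay slightly lower in the mutant embryos. By sign alone, 8 were lower and *Myl2* and *Tnni1* were higher, and *Myl3* also became higher when both genotypes were rescaled to the same total FPKM. The median log2 ratio of the 10 genes was -0.17, with a range from -0.42 for *Myl7* to 0.23 for *Myl2*. Of all expressed loci, 83.9% had a log2 ratio within that range. Abundant genes vary less, and among the 6649 loci with a mean FPKM of 10 or more, called abundant loci here, the 5th and 95th percentiles of the log2 ratio were -0.26 and 0.26. *Myl7* lay outside these bounds and the other 9 sarcomere genes lay inside them. Of the abundant loci, 56.1% were lower in mutant embryos, beside 8 of the 10 sarcomere genes.

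**Figure D1:**
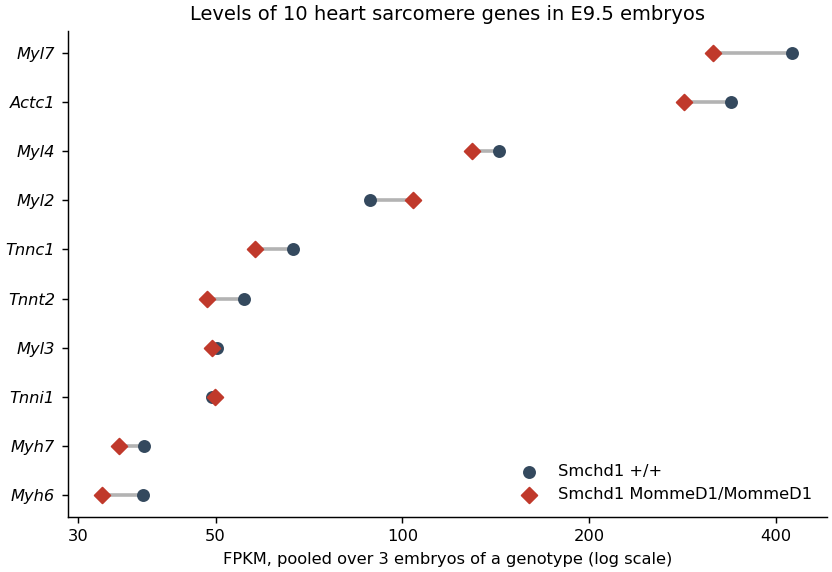
FPKM of the 10 heart sarcomere genes on a log scale, ordered by the wildtype value. Circles are the pooled value of wildtype and diamonds that of mutant embryos, and *Myl7* and *Actc1* stand highest in both.

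The atrial regulatory light chain gene *Myl7* was the most abundant of the 10 genes in both genotypes. It lies on chromosome 11 of mm10 from 5896637 to 5898782, and it was at 317 FPKM in mutant embryos and 425 FPKM in wildtype embryos. Its log2 ratio of -0.42 was at percentile 1.35 of the abundant loci. *Myl7* was the 1 sarcomere gene that passed a looser bound of 0.32 on the log2 scale. With that bound, 4.98% of all expressed loci were lower and 8.84% higher in mutant embryos.

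The ventricular regulatory light chain gene *Myl2*, whose protein takes the same place on myosin in the ventricle, was on the other side of 0. It lies on chromosome 5 from 122100980 to 122106854, and it was at 104 FPKM in mutant embryos and 88.6 FPKM in wildtype embryos. The log2 ratio was 0.23, at percentile 93.6 of the abundant loci. *Myl2* thus stood highest and *Myl7* lowest among the 10 genes in this ratio, although both encode the same kind of chain.

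Within a genotype, *Myl7* was 3.05 times as abundant as *Myl2* in mutant embryos and 4.79 times in wildtype embryos. On the log2 scale these ratios differed by -0.65, mutant minus wildtype. *Myl7* made up 75.3% of the summed FPKM of the pair in mutant and 82.7% in wildtype embryos. A ratio within a genotype does not depend on the scaling between genotypes.

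The essential light chain genes differed less. *Myl4*, the atrial form, which is also used in early skeletal muscle, lies on chromosome 11 from 104550663 to 104587219. It was at 130 FPKM in mutant embryos and 143 FPKM in wildtype embryos, a log2 ratio of -0.15. *Myl3*, the form of the ventricle and of slow skeletal muscle, lies on chromosome 9 from 110750875 to 110769794 and was at 49.4 and 50.3 FPKM, a log2 ratio of -0.03. The *Myl4* share of the pair was 72.4% in mutant and 74.0% in wildtype embryos, and the log2 ratio of *Myl4* to *Myl3* differed by -0.12, mutant minus wildtype.

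*Myh6* and *Myh7* encode the alpha and beta heavy chains, which hold the motor domain of cardiac myosin. Both lie on the minus strand of chromosome 14, *Myh6* from 54941921 to 54966607 and *Myh7* from 54968787 to 54994549. *Myh6* was at 32.8 FPKM in mutant embryos and 38.1 FPKM in wildtype embryos, and its log2 ratio was -0.22. *Myh7* was at 34.9 FPKM in mutant embryos and 38.3 FPKM in wildtype embryos, and its log2 ratio was -0.13. The heavy chain genes were thus almost equal in level, with *Myh6* making up 48.4% of their sum in mutant and 49.9% in wildtype embryos. The difference in the log2 ratio of *Myh6* to *Myh7* was -0.08, mutant minus wildtype.

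In all 3 pairs the atrial form was lower relative to the ventricular form in mutant embryos. The size ranged from -0.08 for the heavy chains to -0.65 for the regulatory light chains. The 4 sarcomere genes without an atrial and ventricular form had log2 ratios from -0.25 to 0.02 (median -0.20). *Myh6* at -0.22 and *Myl4* at -0.15 lay within that range, and *Myl7* at -0.42 lay below it. Summed over the 3 atrial genes, the level was 479 FPKM in mutant embryos and 606 FPKM in wildtype embryos. The 3 ventricular genes summed to 188 and 177 FPKM. *Myl7* alone held most of the atrial sum, so these sums follow the regulatory light chains more than the other pairs.

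**Figure D2:**
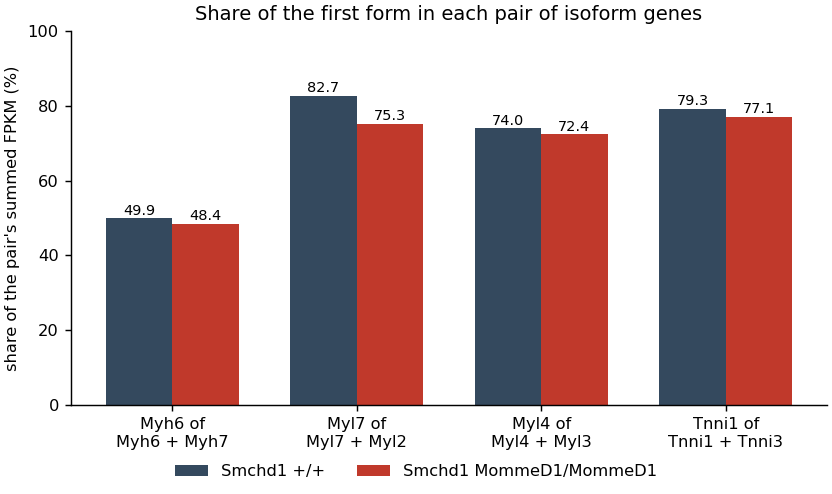
Share of the first named gene in the summed FPKM of each pair, in percent, for wildtype (dark bars) and mutant (red bars) embryos, each a single pooled value. The atrial share of the regulatory light chains was 82.7% in wildtype and 75.3% in mutant embryos, and the other pairs differed by less.

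The near equality of *Myh6* and *Myh7* has to be read with their sequences, since these are so alike that some reads of the study's length cannot be assigned to 1 of them. Of the 6014 windows of 100 bases in the longest coding GENCODE M21 transcript of *Myh6*, 11.4% occur letter for letter in *Myh7* transcripts. In the transcript of *Myh7*, 11.2% of 6131 windows occur in *Myh6*. For the other 8 sarcomere genes no window of 100 bases was found in a transcript of another gene. The longest run that the 2 heavy chain transcripts share is printed here because no 100-base read from inside it tells them apart. It is 245 bases long, lies in the coding sequence of *Myh6* and joins 2 of its exons within chr14:54948327-54948725 of mm10.

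Myh6 and Myh7, shared coding run: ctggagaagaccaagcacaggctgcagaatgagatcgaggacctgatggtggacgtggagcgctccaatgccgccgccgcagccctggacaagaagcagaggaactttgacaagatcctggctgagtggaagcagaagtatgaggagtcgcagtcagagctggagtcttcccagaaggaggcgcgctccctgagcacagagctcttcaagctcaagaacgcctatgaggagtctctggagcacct

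Reads from either strand count toward the same place, since the libraries were nondirectional. Several genes overlap *Myh7* on the other strand. *Mhrt*, a long noncoding RNA gene of the heart that lies antisense to *Myh7*, covers 5.62% of the exon bases of *Myh7* in GENCODE M21, and a further antisense gene, *Gm31251*, covers 6.07%. Neither has a row of its own in the table. Their part in the *Myh7* value was not tested. The overlaps of *Myl3* with *Pth1r* and of *Myl2* with *Ccdc63* cover 4.65% and 3.08% of the exon bases of the light chain genes, and these partners have rows of their own.

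The thin filament gene *Actc1*, which encodes the actin of embryonic heart muscle, was the second most abundant of the 10 genes in both genotypes. It lies on chromosome 2 from 114047289 to 114052811, and it was at 284 FPKM in mutant embryos and 338 FPKM in wildtype embryos. The log2 ratio of -0.25 was at percentile 5.29 of the abundant loci. After *Myl7* it was the lowest ratio of the 10 genes.

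The troponin genes did not lie together. *Tnnt2* encodes cardiac troponin T, which ties the complex to tropomyosin. It was at 48.5 FPKM in mutant embryos and 55.6 FPKM in wildtype embryos, a log2 ratio of -0.20. *Tnnc1* encodes the calcium-binding troponin C of heart and slow muscle. It was at 57.9 FPKM in mutant embryos and 66.7 FPKM in wildtype embryos, and its log2 ratio was also -0.20. *Tnni1*, which encodes the inhibitory troponin I of slow muscle and the fetal heart, was at 49.97 FPKM in mutant embryos and 49.33 FPKM in wildtype embryos, a log2 ratio of 0.02. *Tnni1* was therefore nearly level between genotypes. *Tnnt2* from 135836280 to 135852262 and *Tnni1* from 135799421 to 135810989 are neighbors on chromosome 1, and *Tnnc1* lies on chromosome 14 from 31208312 to 31211711.

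**Figure D3:**
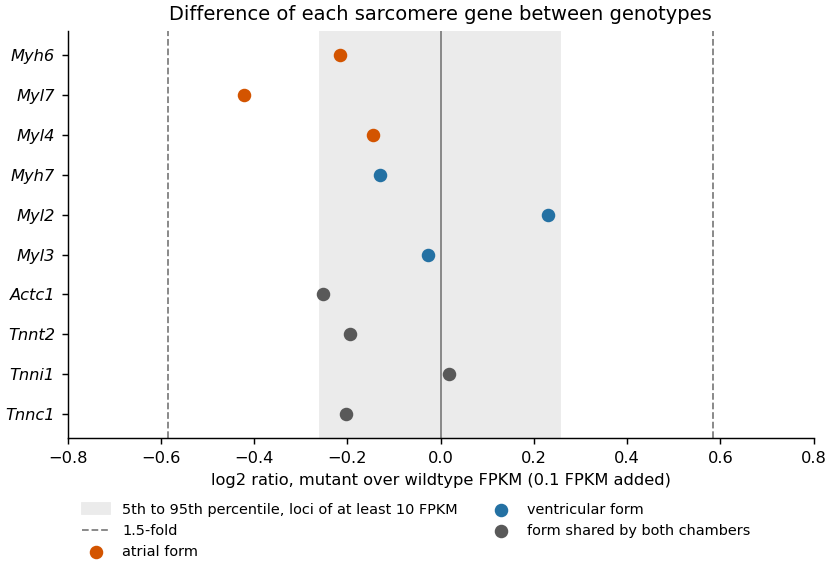
Log2 ratio of mutant to wildtype FPKM for each gene, with atrial forms in orange, ventricular forms in blue and forms used in both chambers in gray. The shaded band spans the 5th to 95th percentile of abundant loci (mean FPKM of 10 or more) and the dashed lines mark 1.5-fold, which no gene reached.

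The order of the genes by level was almost the same in both genotypes. *Myl7*, *Actc1*, *Myl4*, *Myl2* and *Tnnc1* took ranks 1 to 5 in both, and *Myl3*, *Myh7* and *Myh6* took ranks 7, 9 and 10. *Tnnt2* was at rank 6 in wildtype and rank 8 in mutant embryos, and *Tnni1* took the opposite ranks. Those 2 genes and *Myl3* lay within 48.5 to 55.6 FPKM, and without a value per embryo no neighbors in this order can be said to differ. The lowest of the 10 genes, *Myh6* in mutant embryos, was still at percentile 78.0 of the expressed loci.

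With the genes of each kind of chain summed, the proportion to the heavy chains differed most, as a fold, for troponin I. This order holds for the sums only. Taken singly, *Myl2* and *Myl7* differed more, but their log2 ratios of 0.23 and -0.42 partly cancel in the regulatory light chain sum. The troponin I gene *Tnni1* was itself nearly level (0.02), whereas the log2 ratio of the summed heavy chains was -0.17. *Tnni1* was at 0.737 times the level of the summed heavy chains in mutant embryos and 0.646 times in wildtype embryos. *Tnnt2* was at 0.716 and 0.727 times, and *Tnnc1* at 0.855 and 0.873 times that level. Relative to the summed heavy chains, the regulatory light chains were 6.21 times as abundant in mutant and 6.72 times in wildtype embryos. For the essential light chains these ratios were 2.64 and 2.54, and for *Actc1* they were 4.20 and 4.43. The 10 genes together summed to 1108 FPKM in mutant embryos and 1293 FPKM in wildtype embryos. That sum was 0.118% and 0.133% of all FPKM in the table. Loci without a gene symbol held 36.8% of all FPKM in mutant embryos and 39.3% in wildtype embryos, so the total leans on them.

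The members can also be set against the genes that replace them in other muscles or later in life, pairs that were added after the values were seen. *Tnni3*, the troponin I gene of the adult heart, was at 14.8 FPKM in mutant embryos and 12.9 FPKM in wildtype embryos, and *Tnni1* made up 77.1% and 79.3% of the sum of both. *Actc1* made up 92.2% and 92.6% of its sum with the skeletal actin gene *Acta1*. *Tnnc1* was 13.1 times as abundant as the fast skeletal gene *Tnnc2* in mutant and 29.7 times in wildtype embryos, a log2 difference of -1.18. Most of that difference came from *Tnnc2*, whose own log2 ratio was 0.98. *Tnnt2* was likewise 9.91 times as abundant as the slow skeletal gene *Tnnt1* in mutant embryos and 16.3 times in wildtype embryos, but 31.4 and 29.1 times as abundant as the fast skeletal gene *Tnnt3*. *Myl4* was 15.6 and 16.7 times as abundant as *Myl1*, the fast skeletal essential light chain gene. *Actc1*, *Tnnc1*, *Tnnt2* and *Myl4* thus far exceeded these skeletal genes of the same chain in both genotypes. Because *Actc1*, *Tnnc1* and *Myl4* are also used in embryonic skeletal muscle, these pairs do not set heart against skeletal muscle.

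A stretch of up to 250 bases before the start site was searched for motifs of muscle regulators in 9 of the 10 genes. RefSeq start sites of GRCm38.p6, the same build as mm10, were used, and the windows listed for *Myl2* lie outside its locus in the table. The motifs were read on both strands. They were the CArG box bound by serum response factor, the MEF2 site, the MCAT motif CATTCC of TEAD factors, the E-box CAGCTG, the GATA motif AGATAA, the NKE motif CACTTGA and the TATA box TATAAA. A CArG box was found in *Actc1*, *Myl7* and *Myl3*, 3 of the 9 genes, and in 1.47% of the 32841 promoters of the same length. MCAT was found in 5 of the 9 genes and in 12.6% of all promoters. E-box was found in 2 of the 9 and in 13.0% of all promoters, and the GATA motif in 1 of the 9 and in 9.99%. No MEF2 site, NKE motif or TATA box with these letters was found in the 9 stretches, against 0.509%, 2.68% and 12.4% of all promoters. A match is a description of letters and not a site shown to be bound.

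The promoters of the 3 genes with a CArG box are shown because they include both genes of highest level and 1 ventricular form. Capitals mark the CArG box and, in *Myl7* and *Myl3*, also MCAT, which reads GGAATG where it lies on the other strand, and no matches overlap. *Myl7* is at chr11:5898783-5899032 on the minus strand, *Actc1* at chr2:114052876-114053125 on the minus strand and *Myl3* at chr9:110763428-110763677 on the plus strand, all from RefSeq on GRCm38.p6. The start site used for *Myl3* lies 12803 bases inside the edge of its locus in the table. Those of *Myl7* and *Actc1* lie 0 and 64 bases from the edge of theirs.
Myl7: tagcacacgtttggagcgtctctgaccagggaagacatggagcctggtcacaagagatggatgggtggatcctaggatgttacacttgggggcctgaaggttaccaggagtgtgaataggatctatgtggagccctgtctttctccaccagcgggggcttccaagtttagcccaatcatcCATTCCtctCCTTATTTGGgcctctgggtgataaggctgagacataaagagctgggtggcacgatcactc
Actc1: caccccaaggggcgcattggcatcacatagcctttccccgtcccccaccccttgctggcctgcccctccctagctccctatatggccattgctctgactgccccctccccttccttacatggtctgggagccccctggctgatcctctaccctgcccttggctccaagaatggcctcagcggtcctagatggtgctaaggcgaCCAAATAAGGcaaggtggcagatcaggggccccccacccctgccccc
Myl3: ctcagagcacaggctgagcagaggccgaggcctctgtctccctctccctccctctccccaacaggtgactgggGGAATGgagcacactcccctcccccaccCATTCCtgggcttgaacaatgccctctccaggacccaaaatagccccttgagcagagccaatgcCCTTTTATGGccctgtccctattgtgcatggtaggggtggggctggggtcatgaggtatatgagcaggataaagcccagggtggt

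In *Myl7* the CArG box lies at positions -61 to -52 from the start site and MCAT at -70 to -65. In *Actc1* the CArG box lies at -47 to -38, and in *Myl3* at -85 to -76. The 3 genes with this motif did not share a log2 ratio, as *Myl7* was at -0.42, *Actc1* at -0.25 and *Myl3* at -0.03.

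Heart tissue was present in the embryos of both genotypes by genes other than the 10. All 8 heart muscle markers reached 1 FPKM as a mean over both genotypes. *Ryr2* was below 1 FPKM in mutant embryos, at 0.896 FPKM, and at 1.37 FPKM in wildtype embryos. Its log2 ratio of -0.56 was the lowest of the 8 markers. *Nppa*, which encodes a natriuretic peptide, was at 16.7 FPKM in mutant embryos and 19.9 FPKM in wildtype embryos. The transcription factor gene *Nkx2-5* was at 4.78 and 5.88 FPKM, and the log2 ratio of *Gata4*, another such gene, was -0.43. *Tbx5*, also a transcription factor gene, was at 3.65 and 3.59 FPKM. Summed over the 8 markers, the level was 51.5 FPKM in mutant embryos and 58.2 FPKM in wildtype embryos. Of the 8 markers, 6 were lower in mutant embryos, beside 51.8% of all expressed loci. The 8 markers are also members of the longer lists of heart muscle genes that follow, so their counts are not separate from those of the lists.

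Other sarcomere genes of heart muscle lay on the same side as most of the 10. Of 24 such genes, 18 were expressed by that bound. In mutant embryos 16 of these 18 were lower, beside 51.8% of all expressed loci and 56.1% of the abundant loci. Their median log2 ratio was -0.24, and none passed 1.5-fold. *Tpm1*, the most abundant, encodes the tropomyosin that lies along the thin filament. It was at 212 FPKM in mutant embryos and 255 FPKM in wildtype embryos, a log2 ratio of -0.27. *Csrp3*, which encodes a Z-disc protein, was at 17.8 and 21.1 FPKM, a log2 ratio of -0.24. The 2 genes that were higher were *Des*, the gene for the intermediate filament desmin, with a log2 ratio of 0.28, and *Tnni3* with 0.20. The lowest ratios, named after the values were seen, were those of *Nebl* (-0.57), *Nexn* (-0.52) and *Cryab* (-0.48). *Nebl* and *Nexn* encode proteins that bind actin filaments, and *Cryab* encodes a small heat shock protein. *Ttn*, the gene for the giant protein titin, was at 5.03 and 5.44 FPKM, and *Actn2*, the gene for the alpha-actinin of the Z-disc, at 11.2 and 11.4 FPKM.

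Calcium handling genes gave a similar picture with 1 exception. Of 12 such genes, 9 were expressed, with a median log2 ratio of -0.12. In mutant embryos 7 of these 9 were lower, beside 51.8% of all expressed loci. *Atp2a2*, which encodes the calcium pump of the sarcoplasmic reticulum, was at 116 and 124 FPKM. *Asph*, which encodes a protein of that membrane system, was at 25.5 and 26.3 FPKM. *Slc8a1*, the sodium-calcium exchanger gene of the early heart, was at 4.70 and 5.82 FPKM. *Pln*, the gene for the inhibitor of that calcium pump, was at least 1.5-fold higher, beside 3.51% of all expressed loci. It was at 2.21 FPKM in mutant embryos and 1.19 FPKM in wildtype embryos, a log2 ratio of 0.83. With 1 FPKM added to each value *Pln* no longer passed. Among 14 heart transcription factor and natriuretic peptide genes, 9 were lower and 5 higher (median -0.23), beside 51.8% lower among all expressed loci. The most abundant of the 14 genes were *Nr2f2* and *Nppa*, with log2 ratios of 0.14 and -0.24, and *Hand1*, with -0.35. *Myocd*, which encodes a partner of serum response factor, was the 1 gene of these past 1.5-fold, beside 1.47% of all expressed loci lower by that much. It was at 1.11 and 1.84 FPKM (log2 ratio -0.68), and it too no longer passed with 1 FPKM added.

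Skeletal muscle sarcomere genes were mixed in direction. Of 12 listed genes, 8 were expressed, with a median log2 ratio of 0.31. In mutant embryos 5 of these were higher and 3 lower, beside 48.2% and 51.8% of all expressed loci. The median was -0.17 with only loci of a mean FPKM of 10 or more, where *Acta1* alone was left and none passed the fold. *Myh3* (embryonic heavy chain), *Mylpf* (fast regulatory light chain) and *Tnnc2* (fast troponin C) were at least 1.5-fold higher, beside 3.51% of all expressed loci. *Myh3* was at 2.67 FPKM in mutant embryos and 0.876 FPKM in wildtype embryos, and the log2 ratios of *Mylpf* and *Tnnc2* were 0.83 and 0.98. *Acta1*, the most abundant of the list, had a log2 ratio of -0.17, and *Myl1* had -0.05. The skeletal genes were all below the members in level, but *Acta1* was not far below *Myh6*, the lowest member. *Acta1* was at 23.9 FPKM in mutant embryos and 27.0 FPKM in wildtype embryos, and *Mylpf* was at 10.8 and 6.02 FPKM. Of the 8 smooth muscle genes 5 were expressed, and 4 of these were lower (median -0.18), beside 51.8% of all expressed loci. *Acta2*, the smooth muscle actin gene, is also used in the early heart tube. It was at 98.2 and 132 FPKM, a log2 ratio of -0.43. *Myl9* and *Tagln*, also smooth muscle genes, had log2 ratios of -0.18 and -0.11. The actin and myosin genes that all cells use had a median of -0.04 over 8 loci, with 0.06 for *Actg1*, 0.11 for *Actb* and -0.11 for *Myl6*.

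**Figure D4:**
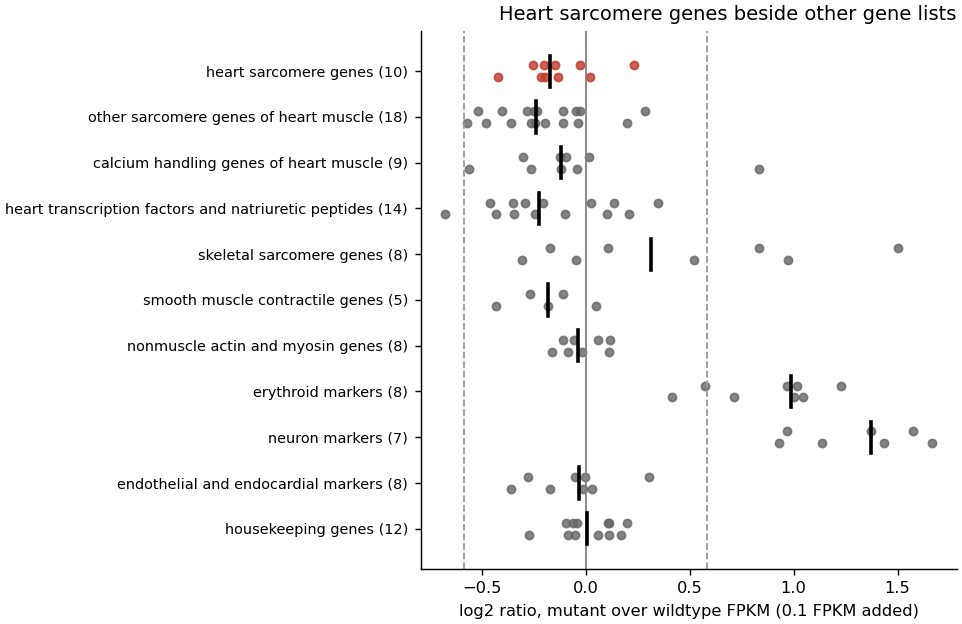
Log2 ratio of mutant to wildtype FPKM for each gene with a mean FPKM of 1 or more (points) in 11 gene lists, with the number of loci in brackets, the list median as a black bar and dashed lines at 1.5-fold. The heart sarcomere genes (red) and other heart genes sit mostly left of 0, and neuron and erythroid markers right of it.

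Markers of other cell types differed between the genotypes. All 8 erythroid markers were higher in mutant embryos (median log2 ratio 0.99), beside 48.2% of all expressed loci. Of the 8 markers, 6 were at least 1.5-fold higher, beside 3.51% of all expressed loci. Their summed level was 6012 FPKM in wildtype and 12697 FPKM in mutant embryos. Among the embryonic globin genes, *Hbb-bh1* was at 3845 FPKM in mutant embryos and 1918 FPKM in wildtype embryos, and *Hba-x* and *Hbb-y* had log2 ratios of 1.02 and 1.23. *Alas2*, a heme synthesis gene of red cells, had a log2 ratio of 1.05. All 7 neuron markers in the table were at least 1.5-fold higher in mutant embryos (median 1.37), beside the same 3.51%. They summed to 68.7 FPKM in wildtype and 175 FPKM in mutant embryos. Of these, *Tubb3*, *Stmn2*, *Nefm* and *Nefl* had log2 ratios of 1.43, 0.97, 1.57 and 1.37. No defining marker of either type was at 0 in either genotype. Endothelial and endocardial markers had a median of -0.03 over 8 genes and summed to 79.96 FPKM in mutant embryos and 83.2 FPKM in wildtype embryos. The log2 ratios of *Cdh5*, *Kdr* and *Emcn* among them were -0.05, -0.17 and 0.03. Housekeeping genes had a median of 0.01 over 12, with -0.06 for *Ppia*, 0.06 for *Gapdh* and 0.11 for *Eef2*. FPKM is a share of all mapped fragments, and the part of the erythroid and neuron markers in the small differences of the sarcomere genes was not tested.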

How the data were processed

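RNA from 6 male E9.5 embryos was sequenced. The paper names TopHat 2, the MM10 build and Cuffdiff 2.0.2, and the submitters' processing notes also list TopHat2 2.0.6, Bowtie2 2.0.2 and Cufflinks 2.0.2. The authors pooled the 3 embryos of each genotype into 1 FPKM value per locus. The authors' table also holds their own fold changes, test statistics, p-values and q-values, none of which was used. No value per embryo and no depth was used. Which column is mutant was taken from the paper's supplementary copy of the table.

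Log2 ratios were computed with 0.1 FPKM added, and loci with a mean FPKM of 1 or more were counted as past the fold at 1.5-fold. With 1 value per genotype used, no test was made. The same counts were made over all loci and over 10 other gene lists. All 10 sarcomere genes were named, and from each other list the 3 most abundant loci and those past 1.5-fold with a mean FPKM of 10 or more, and *Smchd1*. Other genes in the text (heart markers, partners of a pair, overlapping genes, *Pln*, *Myocd*, *Myh3*, *Tnnc2* and the lowest ratios of a list) were chosen after their values were seen. A result for 1 gene of the rule is not reported here. The members and lists were chosen with earlier results of these data known. Motifs and transcript windows were matched exactly to RefSeq promoters and GENCODE M21 transcripts. The counting was tested on simulated data. Alternatives were other pseudocounts, scalings, filters and folds. Python 3.11.15, numpy 2.4.6, pandas 2.3.3 and matplotlib 3.10.9 were used.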

Additional observations from a re-analysis of the deposited data

How the results depend on the processing

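No paired analysis was possible because the table holds 1 pooled value per genotype, and leaving out single embryos could not be run for the same reason. Over the 8 alternatives no sarcomere gene passed the fold, except that 1 gene, *Myl7*, was lower past a bound of 0.32 on the log2 scale. The filters on mean FPKM and the 2-fold setting could not have changed this count. Their median log2 ratio lay between -0.17 and -0.13 in 7 alternatives, the nearest to 0 being -0.13 with the same total FPKM and with the mean in place of the median. The log2 differences between atrial and ventricular forms moved by less than 0.1 with other pseudocounts. All single sarcomere genes stayed within 0.1 in 60 recomputed log2 ratios, and *Myl3* alone changed sign (0.02 with the same total). The filters leave a single ratio as it was, and pseudocounts and scalings move genes of these levels little. The settings thus fixed this count, which says nothing about spread between embryos. Over all loci, 438 were higher and 183 lower past the fold. These counts became 253 and 112 with 1 FPKM added, 1085 and 481 with loci down to a mean FPKM of 0.1, 70 and 50 with those of 10 or more, 122 and 64 at 2-fold, and 1102 and 621 at the looser bound, which follows from the pseudocount, filter or fold itself. For the gene lists, 56 of 60 recomputed medians stayed within 0.1 and 141 of 160 counts within 1.5 times of the value reported. The exceptions among the medians were those of the skeletal sarcomere genes (0.31), at 0.43 with loci down to a mean FPKM of 0.1 and at -0.17 with those of 10 or more, which leaves 1 gene, of the other heart sarcomere genes, at -0.11 with loci down to 0.1, and of the neuron markers, at 1.254 with 1 FPKM added.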
